A study of Mus musculus with 4 samples.

Results

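The 35 genes described here are the enzymes and transporters that carry glucose to pyruvate and lactate, from hexokinase to lactate dehydrogenase, with the E1 part of pyruvate dehydrogenase and the carriers of glucose and lactate at the cell surface. They were taken by gene symbol from a single-cell count matrix of mouse testis that lists 28692 genes, and all 35 symbols were found. Per the labels, 4 samples of testicular cells were prepared, 2 of the genotype Phf7 tKO and 2 of the genotype Phf7 f/f, all from C57BL/6 mice at postnatal day 63. The tKO mice carry Stra8-Cre with the floxed Phf7 alleles that both groups share. Stra8-Cre is active in germ cells from the spermatogonial stage on, not in the somatic cells of the testis. Whether each sample is a separate animal is not stated in the labels. Testes were digested with enzymes, and red blood cells were lysed. Transcripts were counted at their 3' ends by droplet sequencing, as unique molecular identifiers (UMI), each of which stands for 1 captured transcript. The barcodes of the matrix carry suffixes 1 to 4, here called libraries 1 to 4, and no label ties a suffix to a sample, so the genotypes were not compared. What follows is the level of each gene in each cell class, as UMI per 1000000 UMI of that class (CPM), pooled and in every library, with 95% intervals that cover counting error only and no p-values.

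Glycolysis splits glucose into pyruvate, and lactate dehydrogenase interconverts pyruvate and lactate. Sertoli cells are known to make lactate that spermatocytes and round spermatids take up as fuel, while sperm run glycolysis along the tail. For several steps the mouse has a second gene used mainly in the male germ line: Gapdhs beside Gapdh, Pgk2 beside Pgk1, Ldhc beside Ldha, Pdha2 beside Pdha1, and Aldoart1 and Aldoart2 beside Aldoa. Pgam2 is the muscle form of phosphoglycerate mutase and is also the form known from sperm, with Pgam1 as its widely expressed partner. Genes on the X chromosome are silenced during meiosis in males, and Pgk2 and Pdha2 are retrogenes, that is, intronless copies, of X-linked genes.

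Cells were clustered without using the 35 genes, and clusters were named from marker lists, so each name means cells like that type. After filters, 29967 of 32273 barcodes were kept, 6958 to 7941 a library, with a median of 2412 UMI over all barcodes. The 5 germ cell classes held 703 spermatogonia, 454 early spermatocytes, 5470 late spermatocytes, 6470 round spermatids and 9741 elongating spermatids. The 5 somatic classes held 4263 Sertoli cells, 664 Leydig cells, 129 macrophages, 62 endothelial cells and 409 interstitial mesenchymal cells, and 1602 cells stayed unnamed. Of the marker lists, all 9 early spermatocyte and all 9 round spermatid markers were highest in the class that bears the name, as were 7 of 9 for spermatogonia, 6 of 9 for late spermatocytes and 8 of 9 for elongating spermatids. In the somatic classes this held for 8 of 9 Sertoli cell markers and for all Leydig cell, macrophage, endothelial and interstitial mesenchymal markers, and Sertoli cells had a median of 939 UMI. No class was named peritubular myoid, and 5 of the 6 markers of that type were highest in interstitial mesenchymal cells. Their summed level was 1983 CPM there (874 to 3541 over libraries), 753 in elongating spermatids and 632 in endothelial cells (204 to 1583). Whether these somatic classes also hold myoid cells was not tested. Cluster 1, with 3975 of the 5470 late spermatocytes, had a median of 973 UMI a cell and no marker of the name among its 10 leading genes. The 2 deepest late spermatocyte clusters, 19 and 22, had medians of 30366 and 35740 UMI. A doublet caller marked 1 cell of 29968, too few to have worked, so doublets must be assumed to remain. Of 31772 distinct barcode sequences, 497 occurred in more than 1 library.

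Droplets also hold free RNA, and spermatid transcripts were counted in every class. The 9 elongating spermatid markers, protamine and transition protein genes among them, were all above 0 in all 10 classes. Their summed level was 15028 CPM in spermatogonia, 22456 in early spermatocytes, 6548 in late spermatocytes, 35241 in round spermatids and 189022 in elongating spermatids. Over the somatic classes it lay between 6690 in endothelial cells and 50114 in Sertoli cells. The 9 round spermatid markers were also above 0 in every class, with a summed level of 5138 CPM in round spermatids and 302 to 1826 in the somatic classes. Levels of the testis isoforms are therefore also given below per 100 UMI of the protamine gene Prm2, beside the range of the same ratio over the 5 somatic classes. A ratio within that range cannot be told apart from free RNA by this measure.

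All 35 genes have a position in GENCODE M21 on GRCm38, the assembly that mm10 also names. Pgk1 (chrX:106187100-106203699, plus strand, 11 exons) and Pdha1 (chrX:160122209-160138413, minus strand, 11 exons) are the 2 members on the X chromosome. Pgk2 (chr17:40207015-40208640, minus strand) and Pdha2 (chr3:141210004-141212355, minus strand) have 1 exon each, as do Aldoart1 (chr4:72850583-72852634, minus strand), Aldoart2 and Ldhal6b. Gapdhs (chr7:30729775-30743681, minus strand, 11 exons) and Gapdh (chr6:125161715-125166467, minus strand, 7 exons) lie on different chromosomes. Ldhc (chr7:46861203-46878142) starts 5575 bases after the end of Ldha (chr7:46841475-46855627), on the same plus strand. Coding sequences of the 6 pairs are 72.3% to 94.2% identical, with Gapdhs and Gapdh the least alike and Aldoart1 and Aldoa the most. The last 500 bases of the transcripts, from which 3' counting draws its reads, share no run longer than 14 bases within a pair. Of the other members, 97.2% of the last 500 bases of Eno1, 41.4% of Ldhb, 17.8% of Pdhb and 12.6% of Gpi1 are shared with other genes in runs of 60 bases, so these counts are uncertain where reads fit several genes.

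The promoters of Gapdhs, Pgk2, Ldhc and Ldha are shown because Gapdhs and Pgk2 were highest in elongating spermatids, and Ldhc and its neighbour Ldha in late spermatocytes. Sequences are from RefSeq on GRCm38.p6, 5' to 3' on the gene's strand, from 250 bases before to 50 after the start, and 31 of the 35 genes have an entry. Capitals mark 5 short motifs, each searched on both strands. The cAMP response element has the letters TGACGTCA, and its half-site has the letters TGACG, so that a full element holds a half-site on each strand. The GC box, bound by Sp1 and related factors, was searched as GGGCGG. The TATA box was searched as TATAAA, and the CCAAT box by the letters of its name.
Gapdhs: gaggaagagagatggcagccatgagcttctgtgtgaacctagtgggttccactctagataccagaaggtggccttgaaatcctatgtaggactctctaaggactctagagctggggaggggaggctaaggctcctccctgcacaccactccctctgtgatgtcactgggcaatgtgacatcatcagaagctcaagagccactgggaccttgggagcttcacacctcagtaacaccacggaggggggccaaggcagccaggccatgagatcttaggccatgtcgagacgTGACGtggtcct
Pgk2: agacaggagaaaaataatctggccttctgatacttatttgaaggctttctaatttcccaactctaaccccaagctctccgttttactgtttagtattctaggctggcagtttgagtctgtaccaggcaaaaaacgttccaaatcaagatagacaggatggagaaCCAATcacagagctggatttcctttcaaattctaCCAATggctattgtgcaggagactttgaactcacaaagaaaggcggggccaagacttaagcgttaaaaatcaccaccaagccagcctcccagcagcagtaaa
Ldhc: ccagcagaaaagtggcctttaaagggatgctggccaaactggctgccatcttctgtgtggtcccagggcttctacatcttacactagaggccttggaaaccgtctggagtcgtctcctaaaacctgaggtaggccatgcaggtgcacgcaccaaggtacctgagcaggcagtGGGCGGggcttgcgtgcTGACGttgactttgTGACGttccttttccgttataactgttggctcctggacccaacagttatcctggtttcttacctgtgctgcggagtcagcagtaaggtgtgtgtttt
Ldha: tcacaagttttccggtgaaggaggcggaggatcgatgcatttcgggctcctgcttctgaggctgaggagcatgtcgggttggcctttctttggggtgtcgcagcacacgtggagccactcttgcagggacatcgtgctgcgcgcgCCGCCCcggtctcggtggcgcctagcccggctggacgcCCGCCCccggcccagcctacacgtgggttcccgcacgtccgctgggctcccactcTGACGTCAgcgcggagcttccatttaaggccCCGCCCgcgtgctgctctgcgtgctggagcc
These windows lie at chr7:30743632-30743931 (minus strand), chr17:40208560-40208859 (minus strand), chr7:46861013-46861312 (plus strand) and chr7:46845554-46845853 (plus strand). Ldhc holds 2 half-sites, 61 and 47 bases before the start, and a GC box 78 bases before it. Ldha holds the full element 12 bases before its start, the 1 such match among the 31 members, against 1.79% of 32851 promoters. Gapdhs holds a half-site 38 bases after the start, and Pgk2 holds 2 CCAAT boxes, 86 and 52 bases before it. The RefSeq start used for Ldha lies 4329 bases downstream of the start of the GENCODE gene. Half-sites occur in 7 of the 31 member promoters, or 22.6%, against 20.8% of all promoters, GC boxes in 45.2% against 35.7%, CCAAT boxes in 41.9% against 37.4% and TATA boxes in 12.9% against 13.6%. These matches describe the letters in the windows and were not tested for binding.

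Gapdhs and Gapdh encode the enzyme that oxidises glyceraldehyde-3-phosphate. Gapdhs was highest in elongating spermatids, and Gapdh was highest, among germ cells, in spermatogonia. Gapdhs stood at 5982, 5920, 6510 and 6199 CPM in libraries 1 to 4 of elongating spermatids, against 1485, 1456, 1381 and 1516 in round spermatids. No library of one class overlapped the other, and the log2 ratio of elongating over round was 2.08 (2.07 to 2.09). In late spermatocytes Gapdhs was at 310, 251, 207 and 228 CPM, and in early spermatocytes at 669, 559, 1237 and 1199. The summed level of the elongating spermatid markers also differed between early spermatocyte libraries, at 11899 to 30491 CPM, and its part in the Gapdhs values was not tested. Gapdh, the somatic form, was at 65.6, 74.4, 54.7 and 37.4 CPM in early spermatocytes, against 602, 594, 562 and 610 in spermatogonia, a log2 ratio of early spermatocytes over spermatogonia of -3.37 (-3.64 to -3.12). It was at 16.7 CPM in late spermatocytes, 9.90 in round spermatids (8.83 to 10.8 over libraries) and 11.9 in elongating spermatids (9.32 to 13.3). The last 500 bases of Gapdh share runs of 60 bases along their whole length with 105 other annotated genes, so the Gapdh counts are uncertain to the extent that reads matching several genes were dropped.

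Pgk2 and Pgk1 encode phosphoglycerate kinase, the first step of glycolysis that yields ATP. Pgk2 was at 174 CPM in spermatogonia, 234 in early spermatocytes, 272 in late spermatocytes, 660 in round spermatids and 1532 in elongating spermatids. Elongating spermatid libraries lay between 1504 and 1572 and round spermatid libraries between 640 and 672, and the log2 ratio of elongating over round was 1.22 (1.20 to 1.23). Pgk1 was near the limit of detection everywhere. It had 1 UMI among all late spermatocytes, an interval of 0.000681 to 0.150 CPM, against 46 UMI in round spermatids and 94 in elongating spermatids, or 0.855 and 1.27 CPM. The log2 ratio of round spermatids over late spermatocytes was 4.99, with an interval of 2.44 to 10.3 set by the single late spermatocyte UMI. In endothelial cells, its highest class, Pgk1 had 3 UMI, all in library 4, and 16.4% of its last 500 bases are shared with other genes.

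Pdha2 and Pdha1 encode the E1 alpha subunit of pyruvate dehydrogenase, which feeds pyruvate into the citric acid cycle. Pdha2 was at 159, 207, 195 and 140 CPM in early spermatocytes, against 54.1, 48.4, 34.96 and 49.6 in spermatogonia, with no overlap and a log2 ratio of 1.90 (1.63 to 2.18). With equal weight for each cell the ratio was 0.90, under the 2-fold used for calls below. It was at 260 CPM in late spermatocytes and 280 in round spermatids, and at 28.0 (25.5 to 29.5 over libraries) in elongating spermatids. The log2 ratio of elongating over round spermatids was -3.32 (-3.39 to -3.26). Pdha1 was at 4.91 CPM in early spermatocytes and 17.2 in spermatogonia, and 4 UMI remained among all late spermatocytes, a level of 0.108 (0.0293 to 0.276). It had 21 UMI in round spermatids and 8 in elongating spermatids. Its levels in late spermatocytes and elongating spermatids did not differ beyond their intervals. Both X-linked members thus had 4 UMI or fewer in late spermatocytes, the class with 373422 UMI of Ldhc.

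Ldhc and Ldha encode lactate dehydrogenase, and both were highest in late spermatocytes. Ldhc was the most abundant member, at 9451, 10314, 9795 and 10601 CPM in late spermatocytes, against 1531, 1811, 1652 and 1684 in early spermatocytes, a log2 ratio of 2.60 (2.55 to 2.64). It was at 7230 CPM in round spermatids and 3066 in elongating spermatids. Ldha was at 1484, 1577, 1594 and 1603 CPM in late spermatocytes, against 155, 189, 181 and 148 in early spermatocytes, a log2 ratio of 3.22 (3.07 to 3.37). It was at 770 in round spermatids and 154 in elongating spermatids, a log2 ratio of -2.33 (-2.36 to -2.30), against -1.24 (-1.25 to -1.23) for Ldhc. The median gene had a log2 ratio of -1.90 in the same comparison. Relative to it Ldhc was at 0.66 and Ldha at -0.43, both under 2-fold. Ldhal6b, an intronless relative, followed the pair with 1614 CPM in late spermatocytes, 950 in round spermatids and 226 in elongating spermatids. Ldhb, the form of heart muscle, reached at most 13.4 CPM in a germ cell class.

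Pgam2 and Pgam1 encode phosphoglycerate mutase. Pgam2 was at 792, 1300, 785 and 1331 CPM in late spermatocytes, against 157, 239, 266 and 412 in early spermatocytes, a log2 ratio of 1.98 (1.86 to 2.09). It was at 791 in round spermatids and 1336 in elongating spermatids. Pgam1 was at 14.6, 22.6, 23.8 and 22.5 CPM in early spermatocytes, against 167, 186, 181 and 185 in spermatogonia, a log2 ratio of -3.09 (-3.56 to -2.66). It was at 14.4 in late spermatocytes, 5.91 in round spermatids and 1.31 in elongating spermatids.

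Aldoart1 and Aldoa encode aldolase, and here both forms were higher in round spermatids than in late spermatocytes. Aldoart1 was at 133, 140, 143 and 134 CPM in round spermatids, against 20.8, 20.8, 20.8 and 18.0 in late spermatocytes, a log2 ratio of 2.77 (2.66 to 2.88). Aldoa was at 141, 151, 147 and 151 in round spermatids, against 54.8, 59.8, 55.5 and 58.6 in late spermatocytes, a log2 ratio of 1.36 (1.29 to 1.43). With equal weight for each cell these ratios were 0.81 for Aldoart1 and 0.44 for Aldoa, both under 2-fold. In elongating spermatids Aldoa was at 316 CPM and Aldoart1 at 125. Aldoart2, the other intronless aldolase gene, was the most abundant of the 3 there, at 608 CPM, against 453 in round spermatids.

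**Figure D1:**
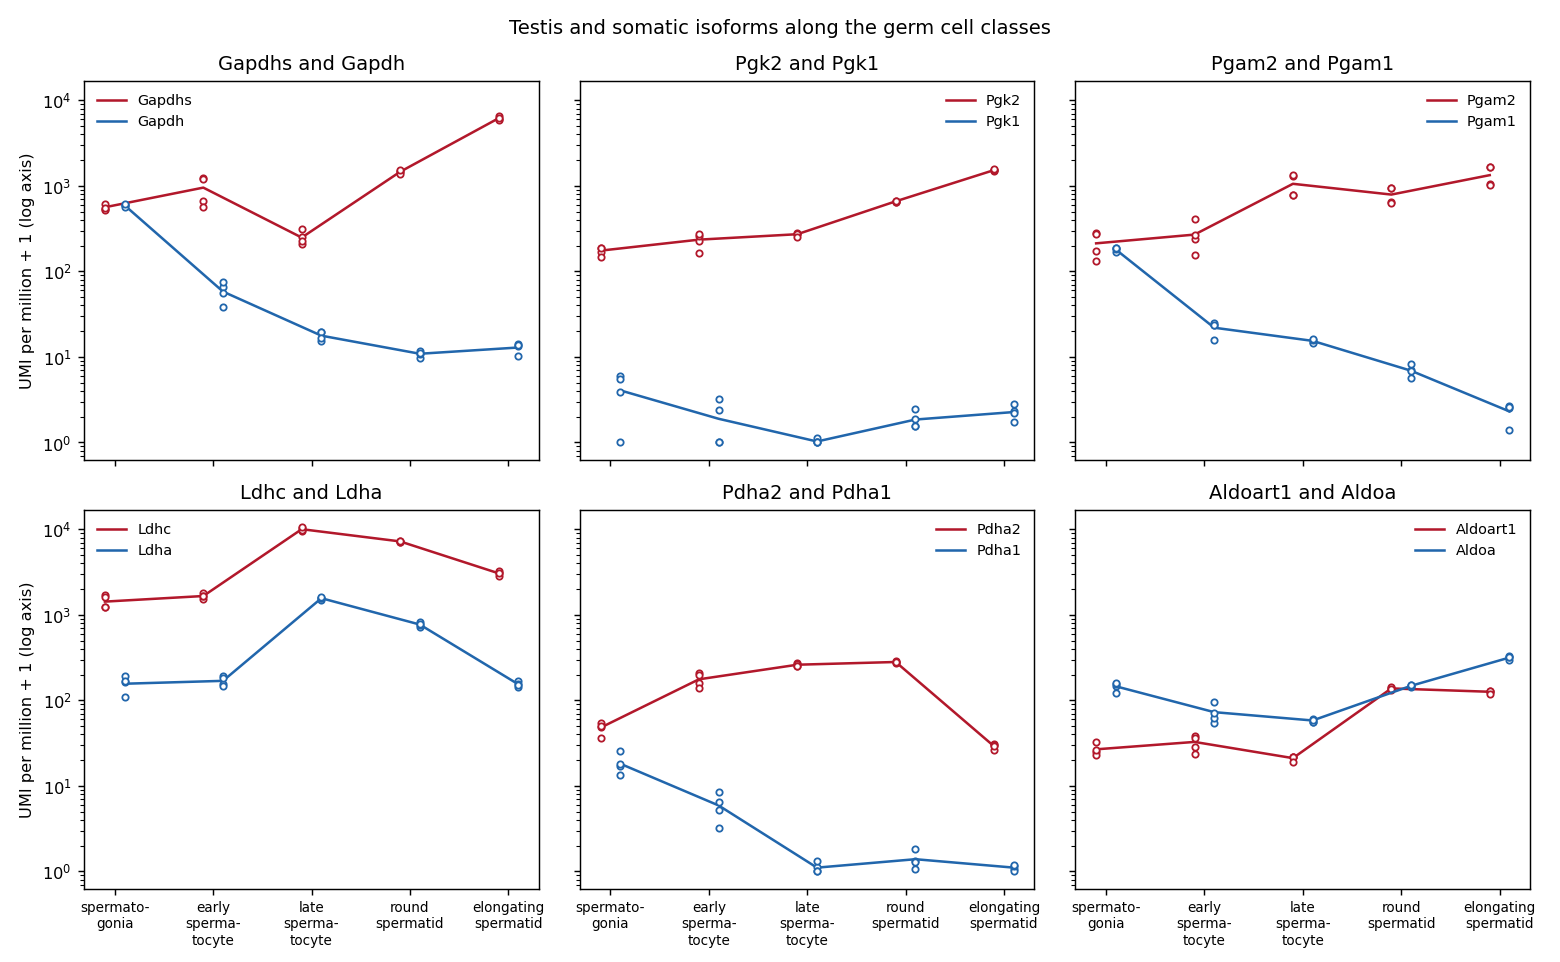
Level of the testis isoform (red) and its somatic partner (blue) of 6 pairs, in CPM plus 1 on a log axis, over 5 germ cell classes; lines join the pooled values and open circles are the 4 libraries. Gapdh and Pgam1 are lower in every later class than in spermatogonia, Pgk1 and Pdha1 are at or near 0 in late spermatocytes, and Ldhc and Ldha both peak there.

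The share of a pair's UMI that belongs to the testis isoform does not depend on the total of a class. It was above 50% for 5 of the 6 pairs in early and late spermatocytes and in round and elongating spermatids, and for 4 of the 6 in spermatogonia, where the count was 3 to 5 over the alternatives. The count was also 5 in Sertoli cells, macrophages and interstitial mesenchymal cells, and 3 in Leydig and endothelial cells. It therefore does not separate germ cell classes from somatic ones. The Gapdhs share was 48.7% (47.1% to 50.3%) in spermatogonia, 94.4% in early and 93.7% in late spermatocytes, 99.3% in round and 99.8% in elongating spermatids. The Pgam2 share was 54.2% in spermatogonia, with libraries between 42.0% and 60.1%, and was 92.8%, 98.7%, 99.3% and 99.9% in the 4 later classes in turn. Over the alternatives the spermatogonia shares ran from 33.4% to 52.9% for Gapdhs and from 43.3% to 65.7% for Pgam2, lowest with the 6% highest doublet scores removed and highest in cells thinned to 1000 UMI. The Pdha2 share was 73.2% in spermatogonia, 97.3% in early spermatocytes and at least 99.6% in each later class. Spermatogonia pool 2 clusters that differ. In cluster 28, of 58 cells, the Gapdhs, Pgam2 and Pdha2 shares were 33.8%, 24.7% and 45.5%, the last on 44 UMI. They were 50.6%, 60.3% and 80.6% in cluster 15, of 645 cells. The Ldhc share stayed between 86.5% in late spermatocytes and 95.2% in elongating spermatids, and the Pgk2 share was 98.3% or more in every germ cell class. Aldoart1 was the exception, with a share of 15.1% in spermatogonia, 30.6% in early and 26.0% in late spermatocytes, 48.2% (47.4% to 49.0%) in round spermatids and 28.4% in elongating spermatids. Aldoart2 is not counted in this pair. Its UMI in the 5 germ cell classes in turn were 271, 222, 2140, 24391 and 45009, beside 473, 161, 2127, 7922 and 23393 for Aldoa. Counted without the low-depth cluster 1, the late spermatocyte shares were 86.5% for Gapdhs and 21.5% for Aldoart1.

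**Figure D2:**
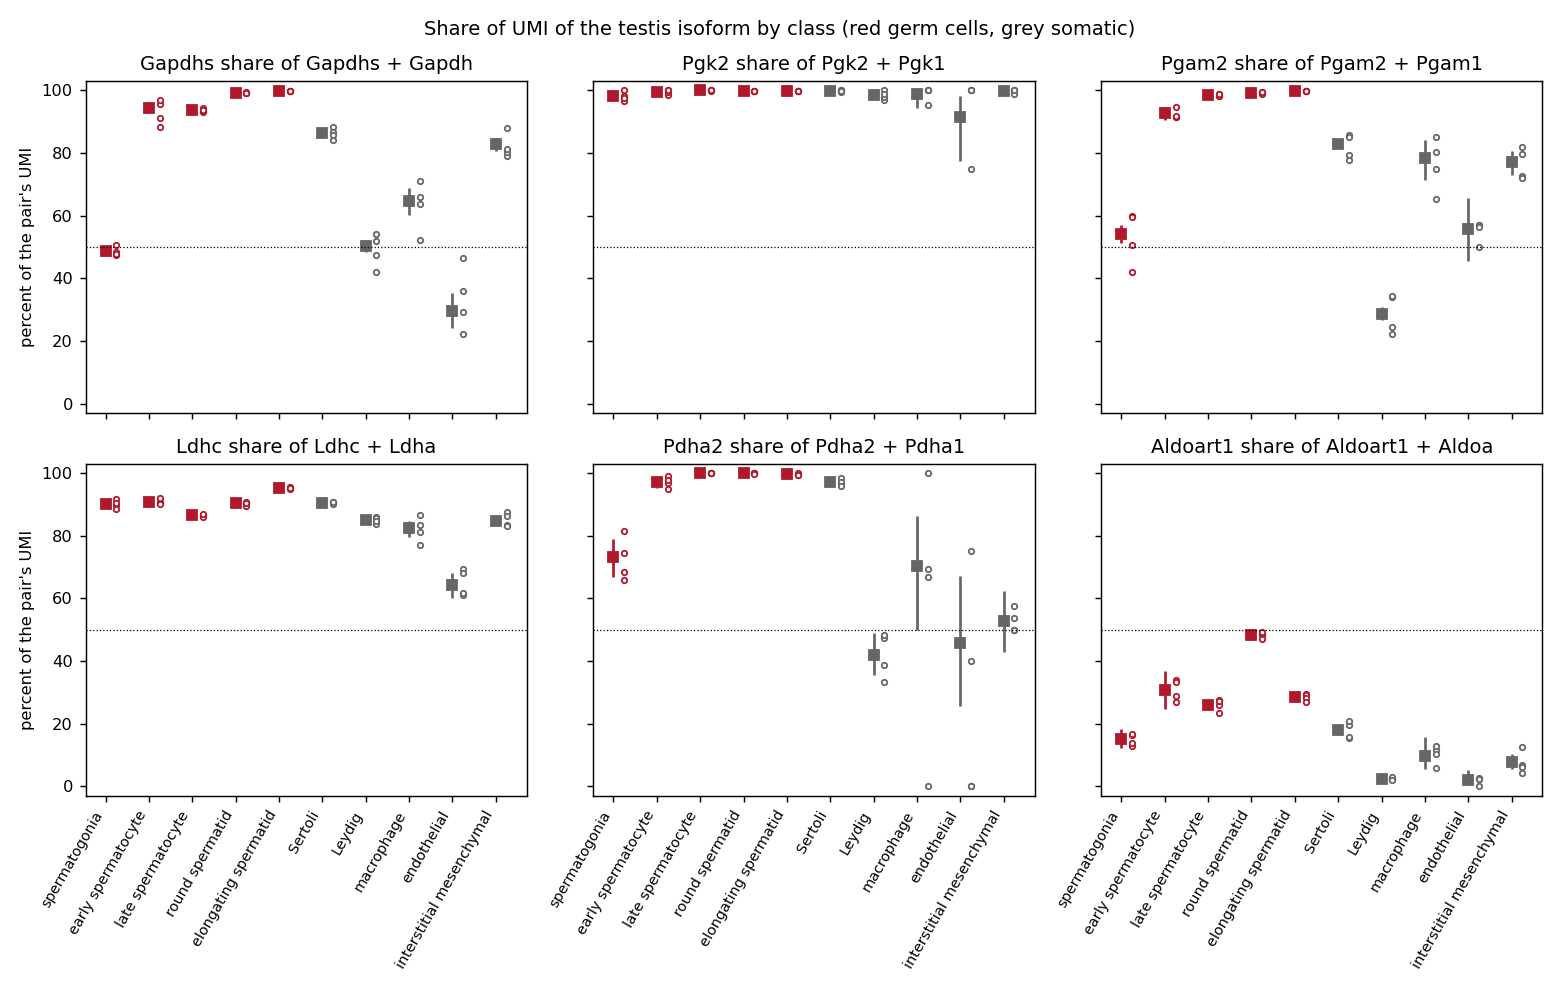
Percent of each pair's UMI that comes from the testis isoform, by class, with squares for the pool, bars for the exact 95% interval and open circles for the 4 libraries; germ cell classes are red and somatic classes grey. Pgk2 is at 98.3% or more in every germ cell class. It is at 91.7% in endothelial cells, on 36 UMI, and at 98.6% to 99.8% in the other somatic classes. Aldoart1 stays under 50% in every class. High shares of other testis isoforms also occur in somatic classes, where spermatid transcripts were counted too.

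Somatic classes showed high shares too, for example 86.4% for Gapdhs, 90.6% for Ldhc and 99.8% for Pgk2 in Sertoli cells. The shares in cells with few transcripts of their own therefore need the comparison with Prm2. Gapdhs had 9.57 UMI per 100 Prm2 UMI in spermatogonia and 8.88 in early spermatocytes, against 8.70 to 9.96 over the 5 somatic classes. Both germ cell values are within the somatic range, so they cannot be told apart from free RNA by this measure. The same held in spermatogonia for Pgk2 (2.97, somatic range 2.59 to 4.01), Pgam2 (3.61, 3.05 to 6.93), Ldhc (24.3, 19.8 to 45.4), Pdha2 (0.800, 0.506 to 1.34) and Aldoart1 (0.439, 0.362 to 0.486). The upper end of each of these ranges was that of endothelial cells, the smallest class. It rested there on 11 UMI for Pdha2 and 4 for Aldoart1, so for these genes the upper end is itself uncertain. In early spermatocytes Pgk2, Pgam2, Ldhc and Aldoart1 were below the somatic range. Pdha2 was at 1.63 there, above the highest somatic value of 1.34, and libraries ran both under and over that value. Pdhb, the partner subunit of E1, was at 2.08 in spermatogonia and 1.84 in early spermatocytes, above the somatic maximum of 0.850. In late spermatocytes all 6 testis isoforms were above the somatic range, with Ldhc at 451, Pgam2 at 47.5, Pgk2 at 12.2, Pdha2 at 11.7, Aldoart1 at 0.903 and Gapdhs at 11.1. In round spermatids Ldhc was at 62.5, Gapdhs at 12.6, Pgk2 at 5.70, Pdha2 at 2.42 and Aldoart1 at 1.18, all above it. Pgam2 at 6.84 was within it and cannot be told apart from free RNA by this measure. Its highest somatic value, 6.93, was that of endothelial cells, on 57 Pgam2 UMI. The transition protein gene Tnp1 was also above its somatic range, by 1.13-fold in late and 1.14-fold in round spermatids. Gapdhs was above its own range by 1.12-fold and 1.27-fold. So Gapdhs in late spermatocytes, though above its range, cannot be told apart from free RNA by this measure.

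**Figure D3:**
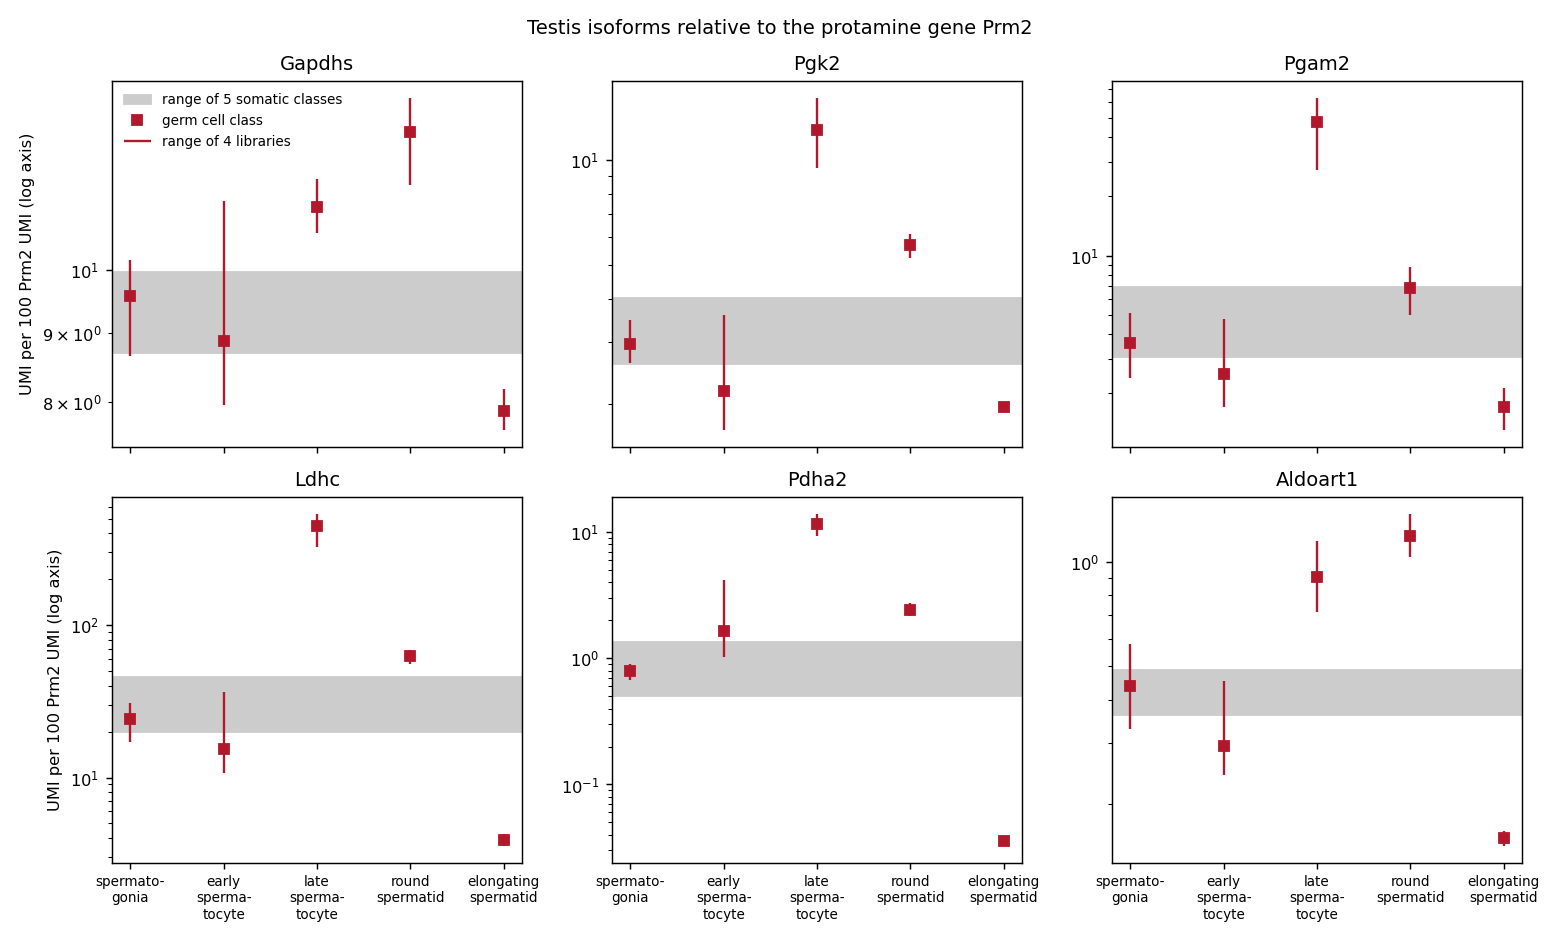
UMI of 6 testis isoforms per 100 Prm2 UMI on a log axis, in 5 germ cell classes (red squares, with the range of the 4 libraries), beside the range over 5 somatic classes (grey band). Spermatogonia lie within the band for all 6 genes and late spermatocytes above it, and elongating spermatids lie below it, where Prm2 itself is at its highest. The upper edge of each band is set by endothelial cells, on 11 UMI for Pdha2 and 4 for Aldoart1.

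Neighbouring germ cell classes were then compared for all 35 genes. A call, higher or lower, needed a pooled ratio of 2-fold or more, the same direction in all 4 libraries and at least 10 UMI in both classes together. Since the groups are classes drawn from the same libraries, a call describes this matrix. Early spermatocytes over spermatogonia gave 2 members higher and 6 lower of 32 tested, where 9.46% and 22.4% of all genes tested were called higher and lower. Pdha2 and Slc2a3 were higher, and Gapdh, Pgam1, Pdha1, Gpi1, Aldoa and Aldoc were lower. Aldoc, an aldolase known from brain, had 0 UMI in early spermatocytes and 129 in spermatogonia, a log2 ratio of -4.89 or below, with the 0 set to 3 counts over the class. The median member had a log2 ratio of 0.19, against -0.20 for all genes tested. The number higher was 0 when each cell was given equal weight, beside 10.3% of all genes, and Pdha2, Slc2a3 and Pdha1 lost their calls. Slc16a7 gained a lower call with that weight, at -1.17, where 18.7% of all genes were called lower. With a coarser or finer clustering the number higher was 5, for which no share over all genes is given.

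Late over early spermatocytes gave 10 members higher and 8 lower of 31 tested, where 18.4% and 27% of all genes were called. The higher ones were Ldhc, Ldha, Ldhal6b, Pgam2, Slc2a3, Pfkp, Pfkm, Eno1, Eno4 and Hk3. Pfkp and Pfkm, forms of phosphofructokinase, the main control point of glycolysis, had log2 ratios of 3.41 (2.92 to 3.94) and 2.51 (2.05 to 3.01). Eno4, an enolase relative known from sperm, had a log2 ratio of 2.48 (1.77 to 3.29) and Eno1 one of 1.17 (0.90 to 1.45). Hk3, with 80 UMI in late and 1 in early spermatocytes, had an interval of -0.25 to 7.59. The lower ones were Gapdh, Gapdhs, Gpi1, Pkm, Ldhb, Pdha1, Slc2a1 and Slc16a1. Pkm, pyruvate kinase, was at 23.7 CPM in late and 134 in early spermatocytes, and Gpi1, glucose-6-phosphate isomerase, at 48.9 and 138, with early levels that differed 2.57-fold between libraries. The call for Gapdhs, a log2 ratio of -1.94, turned to 0.088 when the 6% of cells with the highest doublet scores were removed and to 0.41 with equal weight for each cell. With equal weight Gpi1 turned to 0.36 and Pkm, at -0.86, lost its call. Gapdhs was at 1242 CPM in cluster 1 and at 87.1 and 69.1 in the deep clusters 19 and 22, where Prm2 was at 11608, 812 and 493. The median member had a log2 ratio of -0.19, against -0.49 for all genes.

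Round spermatids over late spermatocytes gave 13 members higher and 4 lower of 34 tested, where 33.3% and 31.1% of all genes were called. The share of members higher, 38.2%, lies near that of all genes. The higher ones were Hk1, Hk2, Gpi1, Aldoa, Aldoart1, Aldoart2, Gapdhs, Pgk1, Pgk2, Pkm, Ldhb, Slc16a1 and Slc16a7. The lower ones were Slc2a3, Ldha, Pgam1 and Aldoc. Hk1, the hexokinase bound to the fibrous sheath of mouse sperm in its testis form, was at 522, 508, 475 and 513 CPM in round spermatids, against 109, 127, 79.5 and 124 in late spermatocytes, a log2 ratio of 2.20 (2.15 to 2.25). Hk2 rested on 77 UMI in round spermatids and 6 in late spermatocytes. With equal weight for each cell, 4 members were called higher and 2 lower, beside 20.9% and 15% of all genes. The 4 were Pgk1, Pkm, Slc16a1 and Slc16a7, and Hk1 was at 0.71, Gapdhs at 0.38 and Pgk2 at 0.13. The median member had a log2 ratio of 0.12, against -0.20 for all genes.

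Elongating over round spermatids gave 7 members higher and 15 lower of 32 tested, where 5.08% and 66% of all genes were called. The higher ones were Hk1, Gpi1, Aldoa, Tpi1, Gapdhs, Pgk2 and Pkm. Hk1 was at 1213, 1124, 1183 and 1156 CPM in elongating spermatids, more than in any round spermatid library, with a log2 ratio of 1.21 (1.19 to 1.23). Gpi1 had a log2 ratio of 2.01 (1.98 to 2.04), Pkm of 1.46 (1.42 to 1.499), Aldoa of 1.10 (1.07 to 1.14) and Tpi1, triosephosphate isomerase, of 1.08 (1.05 to 1.10). The lower ones were Slc2a3, Hk3, Pfkl, Pfkm, Pfkp, Pgam1, Eno4, Ldha, Ldhb, Ldhc, Ldhal6b, Pdha2, Pdhb, Slc16a7 and Bsg. Relative to the median gene, only Pfkm and Pdha2 of these kept the call. Ldhc, Ldhb and Pfkl turned above 0 there, at 0.66, 0.83 and 0.22, short of 2-fold. Pfkl rested on 3 UMI in elongating and 7 in round spermatids. Pfkm had a log2 ratio of -3.57 (-3.74 to -3.40) and Pdhb of -2.27 (-2.34 to -2.20). The median member had a log2 ratio of -0.999, against -1.90 for all genes, and the 4 transition protein and protamine genes took 15.6% of UMI in elongating spermatids, against 2.72% in round spermatids.

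Transcripts of the glucose and lactate carriers also differed between classes. Slc2a3, the glucose transporter GLUT3, was at 446, 484, 498 and 447 CPM in late spermatocytes, against 34.6, 76.7, 70.1 and 29.9 in early spermatocytes, a log2 ratio of 3.14 (2.88 to 3.42). It was at 67.2 in round spermatids and 9.76 in elongating spermatids. Slc2a1, the transporter GLUT1, had 7 UMI among late spermatocytes and 13 among early spermatocytes, and reached 112 CPM (78.5 to 155) in endothelial cells. Slc16a7, the monocarboxylate transporter MCT2, was at 758, 739, 734 and 733 CPM in round spermatids, against 105, 95.8, 92.4 and 99.1 in late spermatocytes, a log2 ratio of 2.92 (2.87 to 2.97). In elongating spermatids it was at 136, a log2 ratio over round spermatids of -2.45 (-2.48 to -2.42). Slc16a1, the transporter MCT1, was at 1.67 CPM in late and 37.1 in early spermatocytes, and highest in Leydig cells, at 75.8. Bsg, basigin, the membrane partner of both carriers, was at 672 CPM in spermatogonia, 1070 in early spermatocytes, 936 in late spermatocytes, 765 in round spermatids and 200 in elongating spermatids, and was at 3114 (2924 to 3314) in endothelial cells. Of the elongating spermatid UMI, 6578 of 14814 for Bsg and 3334 of 10058 for Slc16a7 came from cluster 9. The stage of that cluster is uncertain, as described below.

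Over the 10 named classes, 8 members were highest in elongating spermatids, 7 in late spermatocytes, 4 in round spermatids and 1, Pdhb, in early spermatocytes. A further 6 were highest in endothelial cells, 4 in Leydig cells, 3 in interstitial mesenchymal cells, 1 in macrophages and 1 in Sertoli cells. For 13 of the 35, among them Gapdh, Pgam2, Eno1, Pkm, Ldhb and Pdha2, the library range of the highest class overlapped that of the next. Ldhb stood at 640 CPM in Sertoli cells and 588 in Leydig cells, whose library ranges of 587 to 722 and 543 to 639 overlap, and at 3.48 and 9.90 UMI per 100 Prm2 UMI, against at most 0.173 in a germ cell class. Pfkl, the liver form of phosphofructokinase, was at 74.7 CPM in endothelial and 39.4 in Sertoli cells, and at 2.15 or less in each germ cell class. Hk3, known from blood cells, was highest in macrophages, at 15.3 CPM, and Hk2 in interstitial mesenchymal cells, at 17.4, each on few UMI. Eno3, the muscle enolase, was at 26.5 CPM in late spermatocytes and 23.3 in spermatogonia, with no class highest in all libraries. Aldoa and Pgam1 were highest in Leydig cells, at 862 and 449 CPM, and Aldoc stood at 85.6 there and 39.6 in spermatogonia. Endothelial cells and spermatogonia did not differ for Gapdh beyond their library ranges, at 610 and 593 CPM. Of the 35 genes, 27 had at least 1000 UMI in the matrix and 8 had fewer, with Eno2 at 13 UMI in all. All members together made up 0.570% of UMI in spermatogonia, 0.618% in early spermatocytes, 1.78% in late spermatocytes, 1.61% in round spermatids and 1.72% in elongating spermatids.

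**Figure D4:**
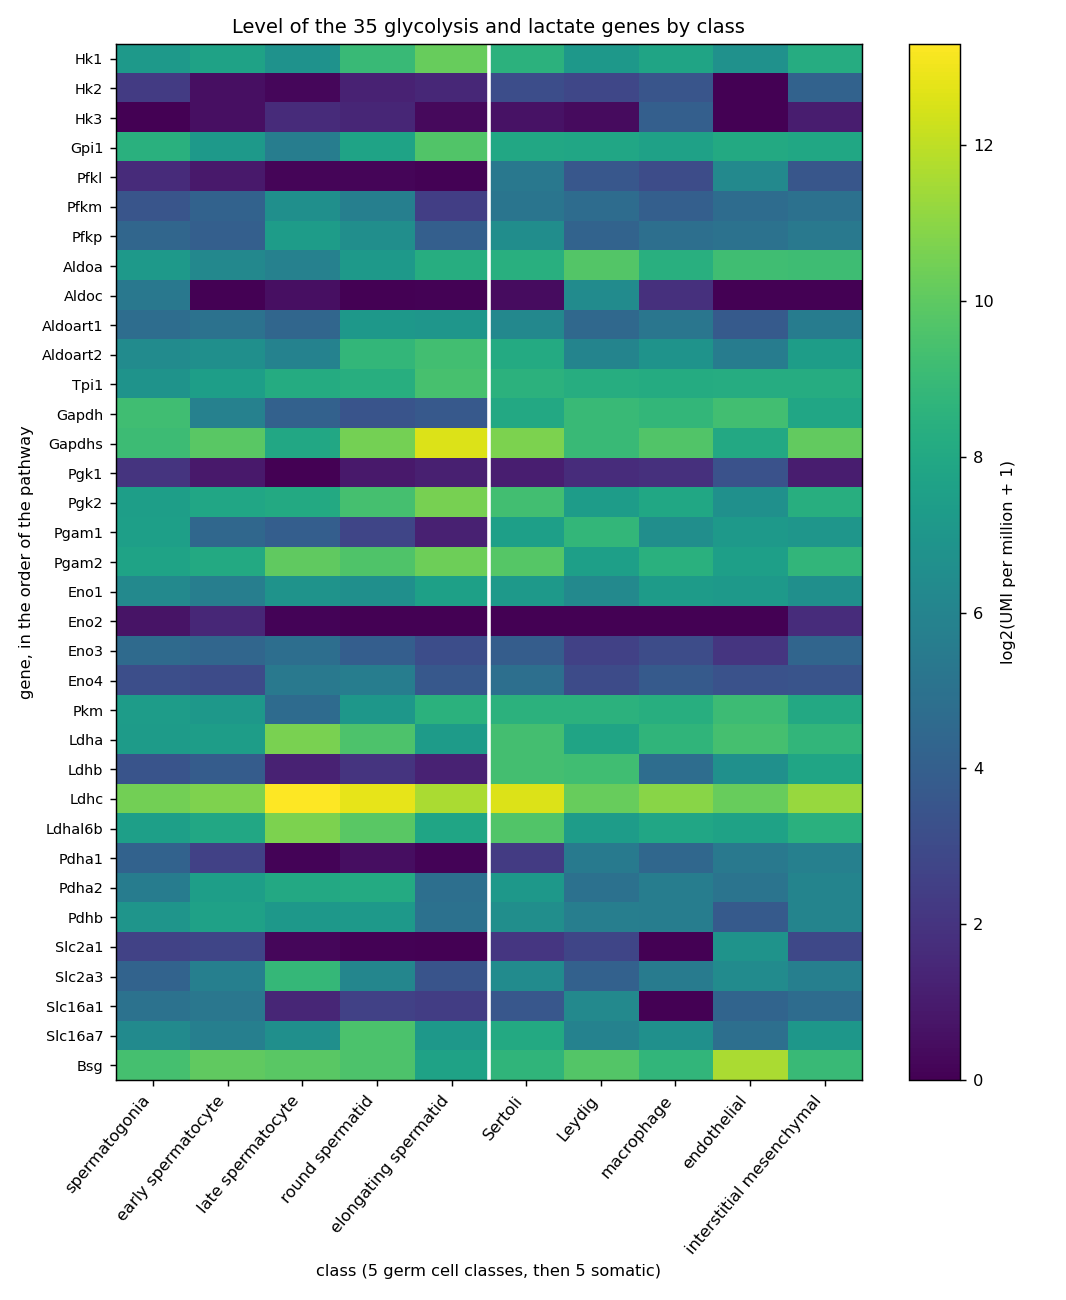
Level of the 35 genes, in the order of the pathway from top to bottom, in 5 germ cell and 5 somatic classes, as log2 of CPM plus 1. Ldhc and Gapdhs are the brightest rows, and Ldhb, Pfkl, Pdha1 and Pgam1 are darker in the spermatocyte and spermatid classes than in most somatic classes.

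Within the spermatid clusters, not all glycolytic genes were highest in the same cluster. Gapdhs was highest in elongating cluster 5, of 1567 cells, at 11557 CPM, where Prm2 was at 129493 and Tnp1, a transition protein gene, at 823. Hk1, Pgk2, Tpi1 and Eno1 were all higher in cluster 10, of 954 cells and a median of 1606 UMI, at 2808, 3188, 1961 and 468 CPM, than in cluster 5, at 1908, 2544, 1587 and 334. Prm2 was at 17100 and Gapdhs at 3121 in cluster 10. Ldhc was highest in cluster 9, of 1030 cells, at 12742 CPM, together with Bsg at 2811 and Slc16a7 at 1425. Cluster 9 was named elongating on a marker score of 0.57, against 0.45 for round spermatids, with no marker of the name among its 10 leading genes. Its Prm2, at 22799 CPM, and Tnp1, at 6005, were below the 30169 and 7855 of round spermatid cluster 7, so its stage is uncertain. Among late spermatocytes Slc2a3 was at 1123 CPM in cluster 13, against 445 and 393 in clusters 19 and 22. Clusters were made from the same cells, so these levels are a description.

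Over the 29 clusters, genes were ranked by the Pearson correlation of log2(CPM + 1) with 3 testis isoforms, among 9124 genes with at least 1000 UMI. Clusters share libraries and free RNA, so the values describe likeness in this matrix. Nearest to Gapdhs were Ubl4b (r = 0.996), Spz1 (0.994), Dnajb8 (0.994), 1700029H14Rik (0.993) and 1700001K19Rik (0.993). Nearest to Ldhc were Cmtm2b (0.982), 4930504O13Rik (0.973), Adam5 (0.973), Cetn1 (0.972) and Cmtm2a (0.969). Among the 5 nearest to Pgk2 were Dbil5 (0.958), Lrrc28 (0.955), Hk1 (0.954) and Dnajb4 (0.954), so that the gene of the first glycolytic step is one of them. Between isoforms, r was 0.77 for Ldhc with Ldha, 0.87 for Gapdhs with Pgk2 and 0.76 for Ldhc with Pdha2, but -0.73 for Pgam2 with Pgam1 and -0.31 for Gapdhs with Gapdh.

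Genes next to these in metabolism were counted from 5 lists. Of 17 citric acid cycle genes, 1 was higher and 16 were lower in elongating over round spermatids, with a median log2 ratio of -2.14, beside the -1.90 of all genes, and 94.1% of the list was lower, beside 66% of all genes. The exception was Idh3g, a subunit of isocitrate dehydrogenase, at 1.36 (1.13 to 1.60), which in late over early spermatocytes was at -5.75 (-6.40 to -5.13). Of 9 tested genes of the pyruvate dehydrogenase complex and its regulators, 0 were higher and 6 lower in elongating over round spermatids, and this 66.7% lies near the 66% of all genes. In late over early spermatocytes, 4 citric acid cycle genes were higher and 8 lower, or 23.5% and 47.1%, beside 18.4% and 27% of all genes. Fbp1, a gluconeogenic phosphatase, was at 1302 CPM in late and 151 in early spermatocytes. Slc2a5, the fructose transporter GLUT5, and Slc2a8 had log2 ratios of 2.95 and 3.20 in that comparison. In round spermatids over late spermatocytes, Gpd2, the mitochondrial enzyme of the glycerol phosphate shuttle, had a log2 ratio of 3.36 (3.30 to 3.43), and Pdk3 and Pdp1, a kinase and a phosphatase of pyruvate dehydrogenase, of 3.34 and 3.56. In early spermatocytes over spermatogonia, Mdh2 was lower, at -3.03, and Dlat, Mpc1 and Sdhd were higher, at 1.46, 1.19 and 1.15. Pfkfb4, a regulator of phosphofructokinase known from testis, was higher in elongating over round spermatids, at 1.43, and Pgm1, Suclg2 and Pfkfb1 were lower, at -4.03, -3.77 and -3.56. Of the other glycolysis and glucose entry genes, 1 was higher and 2 lower of 12 tested in early spermatocytes over spermatogonia, beside 9.46% and 22.4% of all genes, and 3 and 1 of 14 in late over early spermatocytes, beside 18.4% and 27%. In round spermatids over late spermatocytes 6 were higher and 4 lower of 15, or 40% and 26.7%, near the 33.3% and 31.1% of all genes. In elongating over round spermatids 2 were higher and 7 lower of 14, or 14.3% and 50%, beside 5.08% and 66%. Other lactate and pyruvate carriers gave at most 1 call in each direction in any comparison, of 3 to 5 tested, and the glycerol phosphate shuttle at most 2, of 3 or 4. In the lower direction stood also Pgm2 (-2.86) and Tigar (-2.60) in early spermatocytes over spermatogonia, Adpgk (-5.09) and Suclg2 (-3.39) in late over early spermatocytes, and Sdhd (-3.43), Tigar (-2.86) and Sdhc (-2.73) in round spermatids over late spermatocytes.

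Members were also compared between libraries. The ratio of the highest to the lowest library had a median of 1.10 over 24 members in round spermatids, against 1.21 over all genes. In early spermatocytes, the smallest germ cell class, it was 1.55 over 12 members, against 1.27 over all genes, with Pgam2, Gpi1 and Gapdhs above 2. In spermatogonia it was 1.29 over 15 members, against 1.23. Eno1 had the highest ratio of the members compared in late spermatocytes and in both spermatid classes. It was at 46.3, 138, 130 and 132 CPM in libraries 1 to 4 of late spermatocytes, 39.9, 121, 119 and 122 in round spermatids, and 81.8, 218, 211 and 220 in elongating spermatids. The highest library was 2.99, 3.06 and 2.69 times the lowest in these classes in turn, with library 1 lowest in each, and at least as large a ratio was found for 0.602% of genes in round spermatids. The last 500 bases of Eno1 share 97.2% of their length with 4 other annotated genes, of which Eno1b is in the matrix. The sum of Eno1 and Eno1b in round spermatids was 48.1, 143, 138 and 140 CPM, so library 1 was low in the sum as well. Pgam2 was low in libraries 1 and 3 of elongating spermatids, at 1039 and 1037 CPM, against 1645 and 1663 in libraries 2 and 4. Phf7, the targeted gene, differed 10.8-fold between the highest and the lowest library of round spermatids. No library was assigned a genotype from its values, and the part of any sample difference in the Eno1 and Pgam2 values was not tested.

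**Figure D5:**
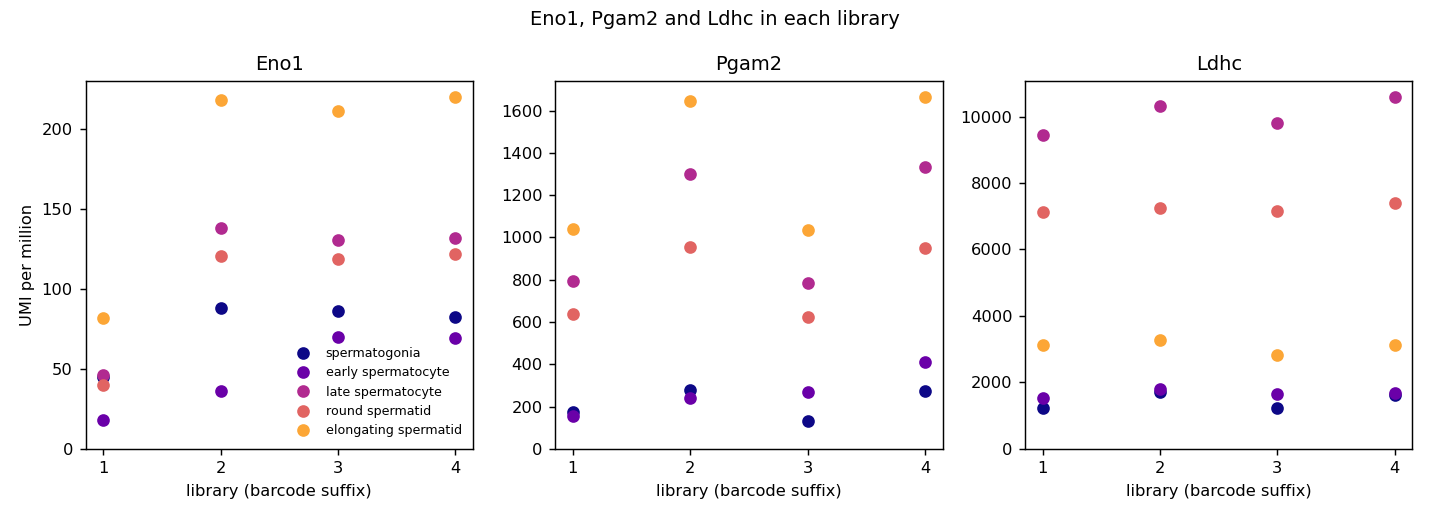
Level of Eno1, Pgam2 and Ldhc in CPM in each of the 4 libraries, with 1 point for each of 5 germ cell classes. Eno1 is lowest in library 1 in every class shown, Pgam2 is lower in libraries 1 and 3 than in 2 and 4 in late spermatocytes and both spermatid classes, and Ldhc differs little between libraries within those classes.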

How the data were processed

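Testicular cells of 2 Phf7 tKO and 2 Phf7 f/f samples were measured by 3' droplet RNA sequencing. The deposited matrix holds raw UMI counts per gene and barcode, made by the authors with Cell Ranger 3.0.2, per the file headers. bcl2fastq 2.19.1.403 and mm10 are named in the submitters' processing notes, with no gene annotation named. The 4 barcode suffixes held 44447735 to 50353091 UMI each, 190744950 in all. No label ties a suffix to a sample, so the matrix was treated as 1 sample, the planned edgeR test of genotype was not run, and suffixes are given as libraries.

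The 35 members and the pathway and marker lists were chosen with earlier results of these data known. Barcodes needed at least 500 genes, and mitochondrial UMI of at most 10%. Cells were normalised to 10000 UMI, and 2000 variable genes, without the members and pathway genes, gave 30 components and Leiden clusters at resolution 1 (scanpy 1.11.5, leidenalg 0.10.2, numpy 2.4.6). Clusters were named from markers by a rule chosen with the clusters already in view. Levels are the summed UMI of a class per 1000000 UMI (CPM), and are not divided by gene length, since each UMI counts a transcript end. Intervals are exact at 95% (Poisson for levels, Clopper-Pearson for shares, conditional binomial for ratios) and cover counting error only. A class at 0 was set to a floor of 3 counts over the class for a ratio. Values were given for the 12 genes of the 6 pairs and for members called, for the 3 highest and 3 lowest pathway genes with at least 50 UMI in each comparison, and for the 5 genes most like Gapdhs, Ldhc and Pgk2. Some genes that these rules pick are not reported here.

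The call rule was tested on simulated data with 200 genes changed 4-fold in each comparison. It recovered 100% of them in early spermatocytes over spermatogonia, among 12946 genes, and 99.5% in late over early spermatocytes, among 15172 genes, with 2.02% and 1.62% of genes falsely called and 96.5% and 94% of intervals covering the simulated ratio. In round spermatids over late spermatocytes, among 17399 genes, it recovered 100%, with 1.20% false calls and 94.5% coverage, and in elongating over round spermatids, among 16981 genes, 100%, with 1.29% and 94.5%. Alternatives changed the filters, the resolution, the clustering genes, the doublet treatment, the weight of cells, the scaling, the thresholds and the libraries used.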

Additional observations from a re-analysis of the deposited data

How the results depend on the processing

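The number of pairs with most UMI in the testis isoform was 5 in each germ cell class after spermatogonia under every alternative that gave a value. In spermatogonia it was 4 as reported, 3 with at least 1000 genes a cell or with the 6% highest doublet scores removed, and 5 in cells thinned to 1000 UMI. Of the ratios of the 12 genes of the pairs 3 reversed: Gapdhs in late over early spermatocytes turned to 0.088 with the 6% highest doublet scores removed and to 0.41 with each cell weighted equally, and Ldhc in elongating over round spermatids turned to 0.66 relative to the median gene. The cause of the first 2 was not tested, and the last follows from the shift of the median gene by -1.90. With each cell weighted equally, members higher numbered 0 in early spermatocytes over spermatogonia (2 as reported), beside 10.3% of all genes. In late over early spermatocytes they numbered 16 (10), with 5 lower (8), beside 31.4% and 27.8% of all genes. In round spermatids over late spermatocytes they numbered 4 (13), with 2 lower (4), beside 20.9% and 15% of all genes. In early spermatocytes over spermatogonia 5 were higher at resolution 0.5, at resolution 2 and at 1.5-fold. In round spermatids over late spermatocytes 2 were lower with the highest doublet scores removed and 9 at 1.5-fold. In elongating over round spermatids 4 were higher with at least 1000 genes a cell, and relative to the median gene 15 were higher and 2 lower, beside 26.4% and 22.3% of all genes. For the settings of resolution, 1.5-fold, at least 1000 genes and doublet scores, no share over all genes is given. Those counts show how far the number of calls moves with the setting and are not a result about the members. Of the other members, Gpi1 in late over early spermatocytes turned to 0.36 with each cell weighted equally. Ldhb and Pfkl in elongating over round spermatids turned to 0.83 and 0.22 relative to the median gene, without a call. Leaving out a library moved no count by more than 1.5 times. Over the pair genes and all alternatives, 627 ratios kept their call or lack of one and 263 shares stayed within their counting interval, while 24 ratios lost and 20 gained a call, and 23 ratios and 85 shares moved.

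An alternative chosen after seeing the data left out clusters with a median under 1000 UMI. It gave Gapdhs a log2 ratio of -3.13 in late over early spermatocytes and 3.75 in round spermatids over late spermatocytes. No early spermatocyte class formed with at least 1000 genes a cell or with the members among the clustering genes, so these gave no value for it. No paired analysis was possible because no label ties a library to a sample, so the genotypes were not compared. Ratios between classes were also taken within each library, and a call needed the same direction in all 4. Depth limits Pgk1, Eno2, Hk2, Hk3 and Pfkl, which rest on few UMI. Free RNA, remaining doublets and cells of low depth bear on the levels of testis isoforms in every class, and their part in the reported values was not tested.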
